A study of Mus musculus with 6 samples.

Results

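Nuclear genes encode most subunits of respiratory complexes I to IV, and 67 of them were followed here in the gastrocnemius, a mostly fast-twitch calf muscle, of mice under intermittent restraint. They were chosen by gene symbol among the protein-coding rows of the deposited table, which has 46504 features in all. The symbol rule uses no expression value, but it was set with earlier results of these data known. The 67 are 35 subunits of complex I, 4 of complex II, 9 of complex III and 19 of complex IV, with Ndufa4 counted in complex IV, where its protein is known to sit. Polyadenylated RNA was sequenced from 3 libraries of restrained wild-type mice and 3 libraries of wild-type control mice, both groups carrying a day 4 label. The stress was 3 h of confinement in a 50 mL tube, given every 4 days, and the labels do not say how many sessions preceded sampling, nor give the age or sex of the mice. The series title places the work in the study of neuroinflammation and its interaction with skeletal muscle. Whether the 3 libraries of a group are 3 different mice is not stated, and the tests below therefore weigh differences against library-to-library spread, which may be partly technical.

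Total read counts were 44907513, 44973655 and 44290720 in the restraint libraries and 48155940, 44814050 and 51125779 in the control libraries. Of the features, 15448 had enough reads to be tested, among them 65 of the 67 subunits. The missing ones are Cox7b2 and Cox8c, isoforms known mainly from testis, which had 0 reads in all 6 libraries; that allows up to 3 counts per library, or 0.0551 to 0.0731 CPM by counting error alone. CPM is the read count scaled to a library of 1e+06 normalized reads. Skeletal muscle markers (Ckm, Acta1, Ttn, Des, Myot and Mb) summed to 62260 to 66206 CPM in restraint and 59938 to 62023 CPM in control. The matching of symbols held for complexes I to IV, but the table lists complex I subunit B1 as Ndufb1-ps, a noncoding gene, so that subunit is outside the 67. Ndufb1-ps averaged 149.7 ± 23.8 CPM in restraint and 166.0 ± 42.4 CPM in control (SD, n = 3 each).

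Complex I takes electrons from NADH and complex II from succinate, both pass them to coenzyme Q, complex III moves them on to cytochrome c, and complex IV hands them to oxygen. Complexes I, III and IV pump protons meanwhile, and complex V uses the gradient to make ATP. Mitochondrial DNA encodes core membrane subunits of these pumps, so each of them is assembled from products of both genomes, whereas complex II is all nuclear. Complex IV has paired isoforms, of which Cox6a2, Cox7a1 and Cox8b are known from heart and skeletal muscle and Cox6a1, Cox7a2 and Cox8a are found broadly. NRF1 and the ETS factor GABP bind many promoters of these genes, and the coactivator PGC-1alpha, encoded by Ppargc1a, is known to work with NRF1, GABP and the ERR receptors.

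The promoter windows of 5 genes of the complex IV isoform pairs are printed with that of Sdhd, a complex II gene whose window holds the ETS and NRF1 motifs. Cox6a2, the muscle partner of Cox6a1, had no window available. RefSeq sequences (GRCm38.p6) of the 250 bases before the start were available for 53 of the 67 genes, in 55 windows because some genes have more than 1 start. Each sequence is on the strand of the gene, and capitals mark the motifs searched: ETS CCGGAAG, NRF1 (GCGC, any base, then TGCGC), ERR AAGGTCA, the E-box CAGCTG of myogenic factors, CCAAT and TATAAA, read on both strands with no base shared between hits shown here. The muscle isoforms are given first.
Cox7a1, chr7:30183921-30184170, plus strand: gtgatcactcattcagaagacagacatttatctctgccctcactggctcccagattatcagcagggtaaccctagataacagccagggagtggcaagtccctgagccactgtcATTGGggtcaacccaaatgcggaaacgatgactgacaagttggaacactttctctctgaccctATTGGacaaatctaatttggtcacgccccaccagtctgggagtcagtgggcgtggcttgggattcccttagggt
Cox8b, chr7:140900447-140900696, minus strand: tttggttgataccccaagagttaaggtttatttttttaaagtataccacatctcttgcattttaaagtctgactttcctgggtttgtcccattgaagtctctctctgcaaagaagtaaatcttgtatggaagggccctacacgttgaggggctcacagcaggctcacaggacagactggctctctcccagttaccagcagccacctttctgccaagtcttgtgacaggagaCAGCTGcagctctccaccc
Cox7a2, chr9:79759854-79760103, minus strand: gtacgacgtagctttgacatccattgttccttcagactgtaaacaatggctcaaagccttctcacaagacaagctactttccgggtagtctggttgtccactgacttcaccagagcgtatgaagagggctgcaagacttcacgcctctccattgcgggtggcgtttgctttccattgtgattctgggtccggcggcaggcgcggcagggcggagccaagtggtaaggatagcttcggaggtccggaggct
Cox8a, chr19:7217617-7217866, minus strand: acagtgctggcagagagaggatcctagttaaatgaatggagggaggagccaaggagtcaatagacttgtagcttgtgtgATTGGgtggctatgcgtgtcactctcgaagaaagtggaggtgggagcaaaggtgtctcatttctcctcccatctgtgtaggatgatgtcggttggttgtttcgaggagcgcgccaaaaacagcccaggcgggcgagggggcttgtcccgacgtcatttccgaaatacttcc
Cox6a1, chr5:115348959-115349208, minus strand: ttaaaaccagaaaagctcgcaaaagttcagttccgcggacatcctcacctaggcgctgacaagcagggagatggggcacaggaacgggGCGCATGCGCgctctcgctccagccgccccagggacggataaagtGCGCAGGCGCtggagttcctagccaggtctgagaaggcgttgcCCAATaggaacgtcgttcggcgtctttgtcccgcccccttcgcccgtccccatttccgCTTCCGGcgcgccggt
Sdhd, chr9:50603850-50604099, minus strand: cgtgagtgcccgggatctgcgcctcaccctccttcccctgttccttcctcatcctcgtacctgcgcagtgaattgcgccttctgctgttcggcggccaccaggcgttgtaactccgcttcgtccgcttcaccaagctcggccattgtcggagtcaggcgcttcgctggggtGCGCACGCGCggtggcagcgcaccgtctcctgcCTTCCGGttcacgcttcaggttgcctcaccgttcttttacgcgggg
Cox7a1 has CCAAT boxes 137 and 74 bases before its start, and Cox8b has an E-box 19 bases before. Cox8a has a CCAAT box 171 bases before its start, and the window of Cox7a2 holds none of the 6 motifs. That window belongs to a start inside the span of Cox7a2 (chr9:79755241-79771422), not to its outer end. Cox6a1 and Sdhd each hold an ETS and an NRF1 motif: 16 bases before the start, with NRF1 motifs at 162 and 117, in Cox6a1, and 46 and 79 bases before it in Sdhd. The NRF1 motif occurred in 10 of the 55 subunit windows, or 18.2%, against 3.74% of all 32851 windows of the same length. The ETS motif occurred in 14.5% of subunit windows against 6.91% of all windows, CCAAT in 38.2% against 33.85%, ERR in 5.45% against 4.08%, the E-box in 9.09% against 13.0%, and TATAAA in 10.9% against 12.4%. These are matches of letters, and no binding was measured.

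No nuclear subunit of complexes I to IV passed the test between restrained and control muscle, and most differences were small. By edgeR's quasi-likelihood test with Benjamini-Hochberg adjustment over all features, 0 of the 65 tested subunits passed the adjusted threshold of 0.05, where 1.83% of all features did, 1.26% higher in restraint and 0.563% lower. At an unadjusted p under 0.05 stood 1 subunit, Cox4i2, against 15.6% of features. DESeq2 called 1 subunit, again Cox4i2, where it called 5.24% of features, as did limma on log2(FPKM + 1), which called 1.52% of features, whereas limma-voom called 0. The 95% interval of the fold change lay within 1.5-fold in both directions for 56 of the 65 subunits, or for 30 of 35 in complex I, 4 of 4 in complex II, 9 of 9 in complex III and 13 of 17 in complex IV; 46.4% of all features had so narrow an interval. The 9 wider ones were Cox4i2, Cox6b2, Cox7a1, Cox8b, Ndufa13, Ndufa5, Ndufb2, Ndufc1 and Ndufc2.

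The fitted log2 fold change (restraint over control) was below 0 for 57 of the 65 subunits, against 50.9% of all features. Its median was -0.10 over all subunits, -0.09 in complex I, -0.11 in complex II, -0.15 in complex III and -0.13 in complex IV, beside -0.01 over all features. The 8 subunits above 0 included Cox6a2, Cox6b2, Cox7a2l, Ndufa1, Ndufa6, Ndufa7 and Uqcr10. The 3 restraint values in CPM lay below all 3 control values for 5 subunits, Cox4i2, Cyc1, Ndufa10, Uqcrc1 and Uqcrc2, which is 7.69% where 11.1% of features did so. Of these 5, only Cox4i2 kept the separation in the authors' TPM, a relative abundance per transcript length. In Cyc1, Ndufa10, Uqcrc1 and Uqcrc2, control 2 was below restraint 2 by TPM. No subunit had all restraint values above control in CPM, as 10.6% of features had. By TPM, however, Ndufa9 did, at 234, 285 and 240 TPM in restraint and 199, 208 and 179 TPM in control, although its CPM values overlapped and leaned lower in restraint. Cox6b2, which has few reads, was also above control by TPM in all restraint libraries. In the other direction, Ndufb2, Ndufb3 and Cox7a1 overlapped in CPM, but by TPM all their restraint values lay below all control values. No share of all features separated by TPM is given here. The median leans on single control libraries: without control 2 it was -0.01 over all subunits and 0.01 in complex I, with 29 subunits above 0, and without control 3 it was -0.25.

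**Figure D1:**
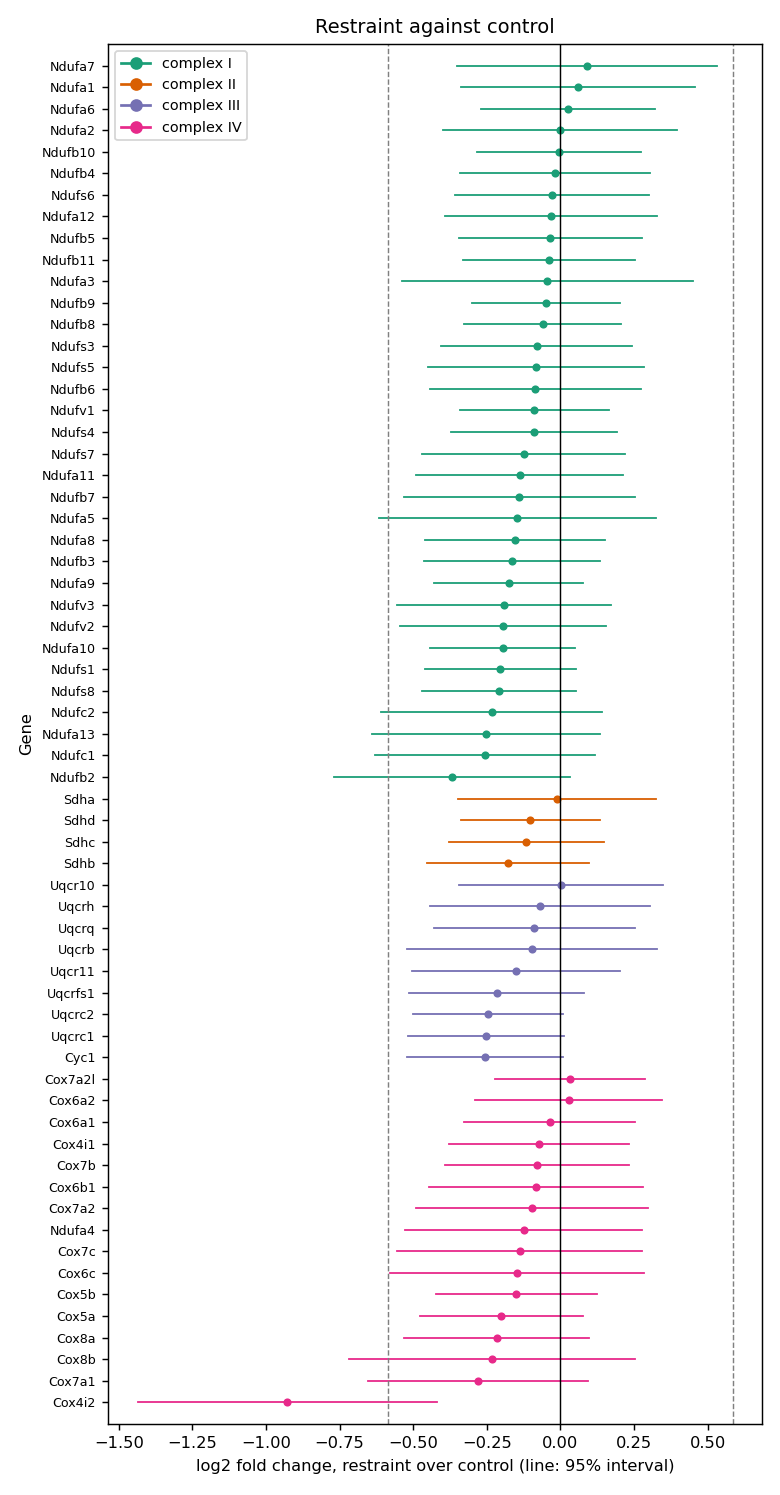
Log2 fold change of each subunit, restraint over control (point), with its 95% interval from the edgeR fit (line), in the 4 complexes, by colour; dashed lines mark 1.5-fold in either direction. Cox6b2, which has few reads, and 1 other tested subunit are not drawn, and of the intervals drawn only that of Cox4i2 keeps clear of 0.

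Complex I was measured in 35 subunits, whose levels per length in TPM, the authors' relative abundance per transcript length (mean of 6 libraries), ran between 75.3 for Ndufa11, a membrane arm subunit, and 1110 for Ndufb9. By the parts of the complex, the median log2 fold change was -0.06 in the N module, which oxidizes NADH, -0.13 in the Q module, which reduces coenzyme Q, -0.17 in the proximal and -0.06 in the distal membrane arm. The 7 nuclear core subunits, which carry flavin, iron-sulfur clusters and the quinone site, had a median of -0.13, and 6 of the 7 were below 0.

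Ndufb2, an accessory subunit of the distal arm, had the largest negative value in complex I. It measured 80.3, 68.3 and 79.8 CPM in restraint, against 106, 117 and 71.5 CPM in control. The groups overlap in CPM, because control 3 was below restraint 1 and restraint 3. By TPM they did not, at 163.9, 151.4 and 158.2 TPM in restraint and 215.8, 207.0 and 164.8 TPM in control. The log2 fold change was -0.37 ± 0.18 (SE; edgeR adjusted p = 0.370).

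Ndufa10, an accessory subunit of the proximal arm, was the complex I gene with groups that do not overlap in CPM and lie lower in restraint, though they overlap by TPM. It measured 293, 282 and 256 CPM in restraint and 309.8, 347 and 295 CPM in control, a log2 fold change of -0.20 ± 0.11 (edgeR adjusted p = 0.439). The gap between restraint 1 and control 3 was small beside the range of either group. Ndufs1, the largest core subunit and a carrier of iron-sulfur clusters, measured 332, 344 and 284 CPM in restraint and 382, 340.2 and 384 CPM in control, with -0.20 ± 0.11 on the log2 scale (edgeR adjusted p = 0.441). Only restraint 2 reached into the control range there. Ndufs8, a core subunit that hands electrons toward the quinone site, averaged 118 ± 3.16 CPM in restraint and 137 ± 17.4 CPM in control (SD, n = 3 each; log2 fold change -0.21 ± 0.11, edgeR adjusted p = 0.433).

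The highest positive value in complex I belonged to Ndufa7, an accessory N module subunit, at 94.8 ± 14.9 CPM in restraint and 89.0 ± 22.0 CPM in control (SD, n = 3 each; log2 fold change 0.09 ± 0.19, edgeR adjusted p = 0.874). The most abundant complex I transcripts per length were those of 3 distal-arm genes, Ndufb9 with a mean of 1110 TPM, Ndufb8 with 1049 TPM and Ndufb10 with 709 TPM. Their differences were small, with log2 fold changes of -0.05 ± 0.11 for Ndufb9, -0.06 ± 0.12 for Ndufb8 and -0.01 ± 0.12 for Ndufb10.

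Complex II, succinate dehydrogenase, joins the citric acid cycle to the respiratory chain, and its 4 genes lay between 348 and 589 TPM. Sdha, the flavoprotein that oxidizes succinate, measured 805, 869 and 663 CPM in restraint and 827, 658 and 871 CPM in control. The lowest values, in restraint 3 and in control 2, were in different groups, and the log2 fold change was -0.01 ± 0.15 (edgeR adjusted p = 0.984). Sdhb, the iron-sulfur subunit, measured 349.9, 332 and 343 CPM in restraint and 438, 391 and 331 CPM in control (log2 fold change -0.18 ± 0.12, edgeR adjusted p = 0.540). Control 3 was lowest of the 6 libraries there. The membrane anchors Sdhc and Sdhd had log2 fold changes of -0.12 ± 0.12 and -0.10 ± 0.10.

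Complex III passes electrons to cytochrome c, and 3 of its 9 genes, all with long transcripts, had restraint CPM below all control CPM, where 11.1% of all features had. By TPM the groups overlapped in all 3, with control 2 below restraint 1 and restraint 2. Cyc1, cytochrome c1, measured 341, 353 and 296 CPM in restraint and 434, 364 and 385 CPM in control. Uqcrc1, a core subunit, measured 587, 605 and 504 CPM in restraint and 736, 645 and 641 CPM in control. Uqcrc2, its partner in the core, measured 389, 377 and 329 CPM in restraint and 469.7, 403 and 427 CPM in control. In all 3 genes restraint 3 was lowest and control 1 highest. Their log2 fold changes were -0.26 ± 0.12, -0.25 ± 0.12 and -0.25 ± 0.11 in that order, with edgeR adjusted p = 0.336, 0.344 and 0.337, so none passed. The small subunits were nearer to 0: Uqcr10 had a log2 fold change of 0.00 ± 0.15, Uqcrh of -0.07 ± 0.16, Uqcrb of -0.10 ± 0.19 and Uqcr11 of -0.15 ± 0.16. They were also among the most abundant per length, Uqcrh at 1240.3 TPM, Uqcrb at 1099 TPM and Uqcr11 at 999 TPM.

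Complex IV reduces oxygen, and its tested nuclear subunits held both extremes of level per length among the 65, 2104 TPM for Cox6a2 and 0.680 TPM for Cox6b2, an isoform known from testis. Cox4i2 gave the difference nearest the threshold. It is an isoform of the subunit Cox4i1, known for its regulation by oxygen in lung, and it is not a major form in muscle. Cox4i2 had 44, 46 and 49 reads, or 0.989, 0.985 and 1.13 CPM, in restraint and 112, 79 and 93 reads, or 2.29, 1.92 and 1.71 CPM, in control. All 3 restraint values were below all 3 control values, at a log2 fold change of -0.93 ± 0.22 (edgeR adjusted p = 0.0855). Leaving out any 1 library gave edgeR adjusted p between 0.102 and 0.328. It lies at chr2:152753916-152765039 (RefSeq, GRCm38.p6), and its span overlaps that of Bcl2l1, an apoptosis inhibitor, whose own level averaged 17.6 ± 5.40 CPM in restraint and 17.8 ± 2.22 CPM in control (SD, n = 3 each). How reads lying over both genes were assigned is not stated by the labels. Cox4i2 is known from vessel walls in several tissues; 0 of 6 endothelial and 0 of 8 pericyte and smooth muscle markers passed, with endothelial sums of 212 to 267 CPM in restraint and 227 to 279 CPM in control, and their part in the difference was not tested. The pericyte list summed to 623 to 691 CPM in restraint and 647 to 763 CPM in control. In bulk tissue, fewer cells of a type cannot be told apart from less RNA per cell. The common isoform Cox4i1 measured 644, 658 and 618 CPM in restraint and 718, 753 and 547 CPM in control, with a log2 fold change of -0.07 ± 0.13.

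**Figure D2:**
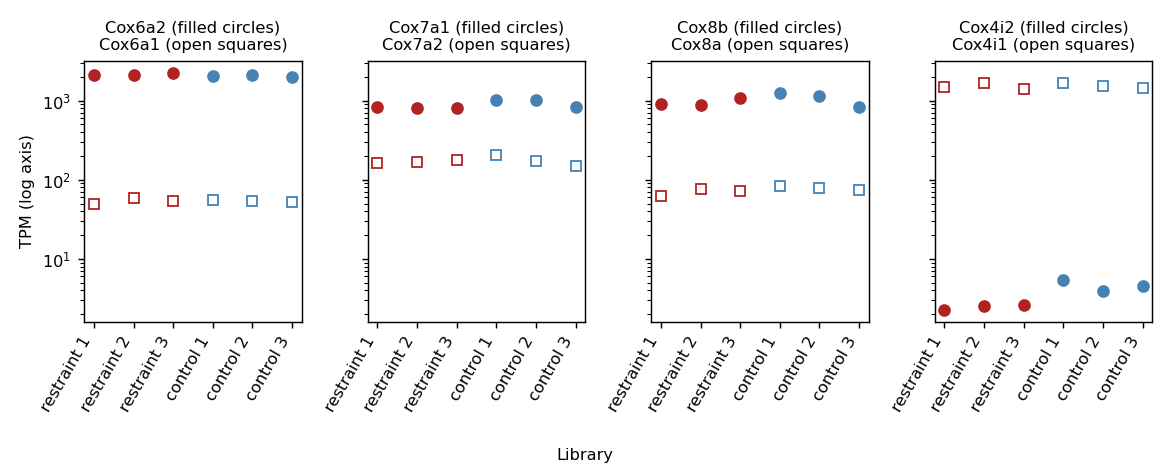
TPM on a log axis in each library for 4 isoform pairs of complex IV, the tissue-specific isoform as filled circles and the common isoform as open squares, 3 restraint libraries (red) left of 3 control libraries (blue). Cox6a2, Cox7a1 and Cox8b lie above their partners in all 6 libraries, and Cox4i2 lies below Cox4i1, at 2.28 to 2.60 TPM in restraint and 3.97 to 5.46 TPM in control.

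The muscle isoforms dominated each pair per length, in both groups. Cox6a2 measured 801, 734 and 882 CPM in restraint and 775, 924 and 672 CPM in control, a log2 fold change of 0.03 ± 0.14, and its share of pair TPM was 97.6% ± 0.219 in restraint and 97.5% ± 0.0714 in control (SD, n = 3 each). Cox8b measured 191, 167 and 229.9 CPM in restraint and 261, 274 and 156 CPM in control, and its share was 93.1% ± 0.974 in restraint and 93.0% ± 1.03 in control. Cox7a1 measured 176, 158 and 179 CPM in restraint and 215, 252 and 157 CPM in control, and its share was 82.7% ± 0.700 in restraint and 84.4% ± 1.34 in control. In CPM, control 3 was lowest in all 3 muscle genes, but by TPM all restraint values of Cox7a1 lay below its control values. The fold changes were -0.28 ± 0.16 for Cox7a1 and -0.23 ± 0.21 for Cox8b on the log2 scale (edgeR adjusted p = 0.469 and 0.675). The broad partners had values of -0.04 ± 0.13 for Cox6a1, -0.10 ± 0.17 for Cox7a2 and -0.22 ± 0.14 for Cox8a. The share of Cox7a1 rests on the length the authors' TPM used: it was 83.6% over the 6 libraries by TPM and 60.3% by read counts, and 67.4% by read counts per annotated mRNA length, and reads of Cox7a2 may include those of the overlapping gene Tmem30a.

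Among the other subunits of complex IV, Ndufa4, at 1507 TPM, and Cox5a, a matrix-side subunit at 1256 TPM, lay above the complex IV median of 1012 TPM. Ndufa4 measured 422, 378 and 441 CPM in restraint and 504, 523 and 326 CPM in control (log2 fold change -0.13 ± 0.18). Cox5a measured 458, 474 and 465 CPM in restraint and 573, 582 and 451 CPM in control (log2 fold change -0.20 ± 0.12, edgeR adjusted p = 0.483). Restraint values spanned less than control values in both, and control 3 was the lowest of the 6. Cox6b2 had 13, 14 and 11 reads in restraint and 13, 2 and 8 in control, too few for a direction (log2 fold change 0.84 ± 0.56). The 35 tested subunits of all 4 complexes whose fold changes are not described singly had log2 fold changes between -0.26, in Ndufc1, and 0.06, in Ndufa1, with 31 below 0 and a lowest edgeR adjusted p of 0.483.

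**Figure D3:**
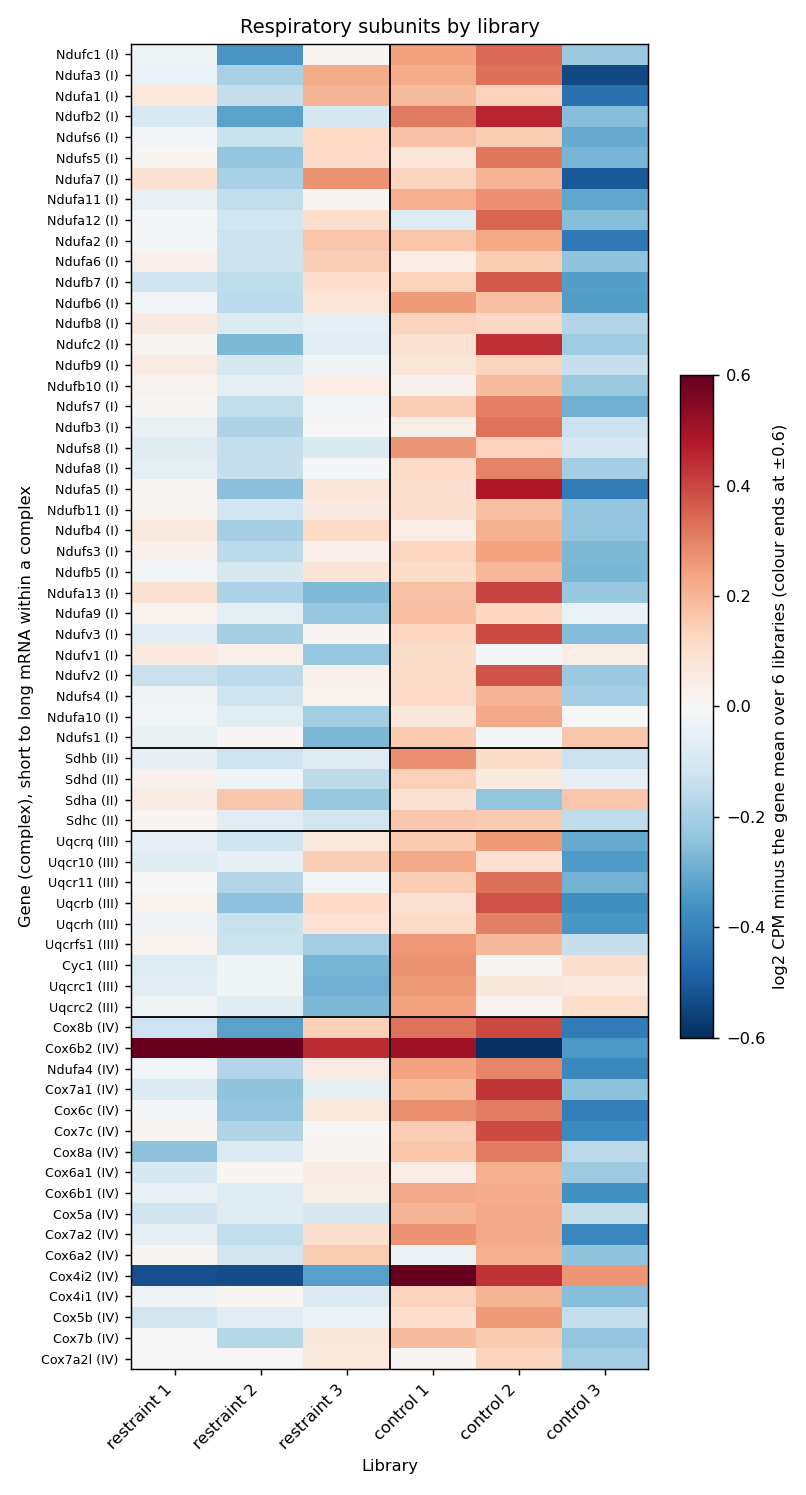
Log2 CPM of each subunit minus its mean over the 6 libraries, by complex, in 3 restraint and 3 control libraries; colours saturate for Cox4i2 and Cox6b2, and 1 tested subunit is not drawn. Control 2 is the highest library for 41 of all 65 tested subunits and control 3 the lowest for 46.

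The subunit medians differed most inside the control group. Taking each subunit's log2 CPM minus its mean over the 6 libraries, the median over subunits was -0.02, -0.13 and 0.02 in restraint 1 to 3, and 0.15, 0.22 and -0.24 in control 1 to 3. The 3 restraint medians fall between the lowest and the highest control. Control 2 was highest for 41 of 65 subunits and control 3 lowest for 46, against 19.4% and 19.7% of features, and control 1 was highest for 18. Control 3 was also lowest in complexes I, III and IV, at -0.24, -0.28 and -0.25; in complex II the lowest was restraint 3, at -0.13. By the authors' TPM, which rescales for length, the 67 subunits summed to 37329, 37860 and 37106 TPM in restraint and 42112, 38949 and 36081 TPM in control, where control 1 was highest and control 3 again lowest.

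**Figure D4:**
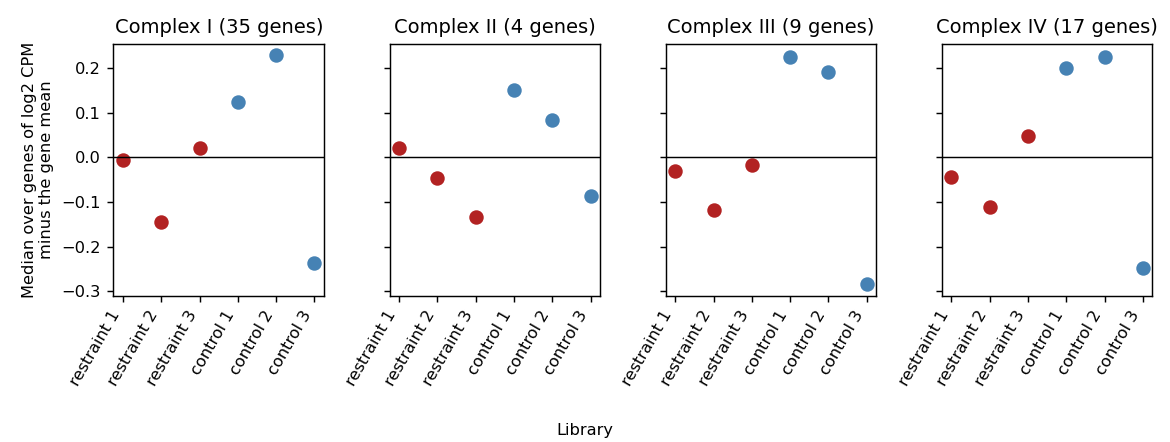
Median over the tested genes of each complex of log2 CPM minus the gene mean over the 6 libraries, 1 point per library, 3 restraint libraries (red) left of 3 control libraries (blue). Control 3 is the lowest point in complexes I, III and IV, at -0.24, -0.28 and -0.25, and the restraint points of those complexes lie between the control points.

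The library differences ran with transcript length, most in restraint 3 and control 3. Annotated mRNA length was between 315 and 3171 bases, and 44 subunits were under 1000 bases. In control 3, the median of log2 CPM minus the mean of the other 2 control libraries was -0.50 for subunits under 1000 bases and -0.28 for the 21 longer ones, against 0.06 over all protein-coding genes with a length and -0.35 over all 950 such genes under 1000 bases. Across the 65 subunits, Spearman's rank correlation of length against that deviation was 0.32, 0.59 and -0.64 in restraint 1 to 3, and -0.40, -0.48 and 0.64 in control 1 to 3. Across the 12765 protein-coding genes it was -0.07, 0.27 and -0.26 in restraint 1 to 3, and -0.11, -0.39 and 0.45 in control 1 to 3, so that only restraint 1 differed in sign from the subunits. The subunits share libraries and are not independent, so these values describe the libraries only. Long transcripts Cyc1, Uqcrc1, Uqcrc2, Sdha and Ndufs1 were low in restraint 3, whereas short ones were low in control 3. By length, the median log2 fold change was -0.09 for the short and -0.18 for the long subunits. In CPM, restraint lay below control without overlap in 1 of 44 short and 4 of 21 long subunits, against 11.1% of all features. The part of RNA quality or library preparation in these patterns was not tested.

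**Figure D5:**
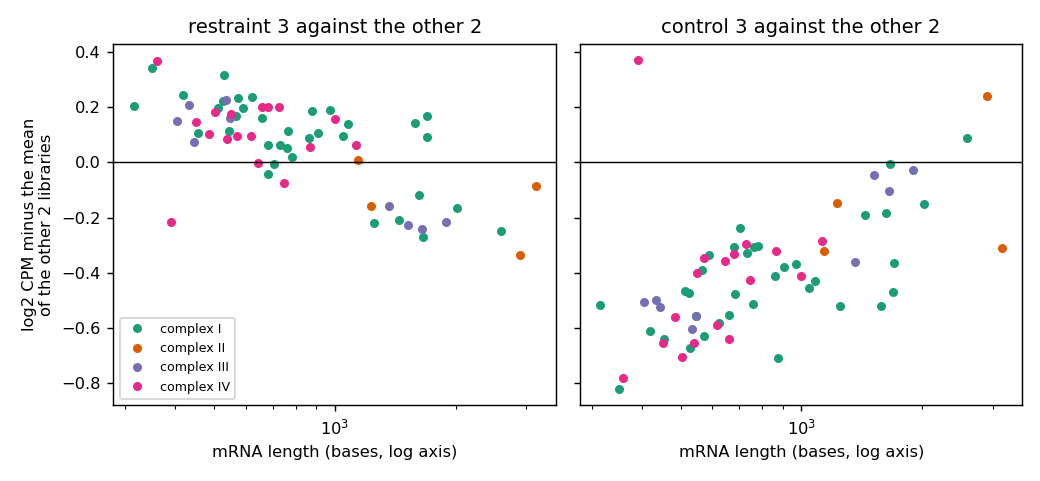
Log2 CPM of each subunit in restraint 3 (left) and control 3 (right), minus the mean of the other 2 libraries of its group, against annotated mRNA length on a log axis. The rank correlation was -0.64 in restraint 3 and 0.64 in control 3. Subunits under 1000 bases had a median of 0.15 on the left and -0.50 on the right. The longer ones had -0.16 on the left and -0.28 on the right, so both length classes lie mostly below 0 in control 3. The high point in control 3 is Cox6b2.

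Other measures also set control 2 apart. Mitochondrial transcripts took 13.2% to 15.1% of reads in restraint, and 15.5%, 19.3% and 14.0% in control, highest in control 2. The 10 slow fibre markers summed to 2608, 2471 and 2460 CPM in restraint and 2489, 3396 and 2461 CPM in control, highest in control 2 as well, with 0 called. None of 9 fast glycolytic and 2 fast oxidative fibre markers was called. All 8 macrophage markers were above 0, with a median log2 fold change of 0.80. They summed to 59.8, 181 and 94.4 CPM in restraint and 64.6, 58.5 and 47.4 CPM in control, so that restraint 1 lay within the control range. Of the 8, 1 was called, beside 1.83% of all features: Cd68 (log2 fold change 2.86 ± 0.56, edgeR adjusted p = 0.0440, and 0.109 to 0.198 without any 1 library other than restraint 1, 0.000464 without restraint 1). Of 4 brown adipocyte markers 0 were called, and the defining marker Ucp1 and Elovl3 were at 0 in all libraries. Cidea stood at 1.60, 1.69 and 1.53 CPM in restraint and 1.14, 1.24 and 1.12 CPM in control (log2 fold change 0.46 ± 0.21, edgeR adjusted p = 0.340). Its groups did not overlap, as in 10.6% of all features, higher in restraint. Dio2 averaged 1.04 ± 0.373 CPM in restraint and 0.934 ± 0.0925 CPM in control (SD, n = 3 each). All 6 tendon markers were below 0, with 0 called, a median log2 fold change of -0.74 and sums of 81.0, 199.9 and 149.7 CPM in restraint and 231, 179 and 224 CPM in control. For 3 of them restraint lay below control without overlap, where 11.1% of all features did so. The smallest p was that of Kera (log2 fold change -1.34 ± 0.35, edgeR adjusted p = 0.103). All 4 Schwann cell markers were also below 0, with 0 called, a median of -0.56 and sums of 85.0, 71.4 and 241 CPM in restraint and 110.3, 329 and 192 CPM in control. White adipocyte markers had 0 of 5 called and a median of -0.37, and fibroblast and red blood cell markers had 0 called and medians of 0.06 and -0.06. The part of these cell types in the subunit values was not tested.

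Around the subunits, 2 genes of the rest of the pathway passed, Coq10b and Ppargc1a. The number tested in each list is given with the list, and 1.83% of all features passed. Of 18 subunits of complex V, the ATP synthase, 0 passed and 17 were below 0, with a median log2 fold change of -0.16; the smallest p was that of Atp5g3, a membrane ring subunit, at 446 ± 5.56 CPM in restraint and 539 ± 81.5 CPM in control (edgeR adjusted p = 0.349). The 10 tested mitochondrial subunits of complexes I, III and IV were all below 0, with 0 called and a median of -0.21; the smallest p was that of ND5, a membrane-arm subunit of complex I (log2 fold change -0.28 ± 0.15). None of the assembly factors passed: 15 for complex I (median -0.10), 4 for complex II (-0.14), 6 for complex III (-0.14) and 20 for complex IV (-0.06). Restraint lay below control without overlap in 5, 1, 1 and 3 of them in that order, against 11.1% of all features, and above in 0. Of the complex V and mitochondrial subunits 0 were separated in either direction. The nearest was Coa7, a complex IV assembly factor, at 10.3 ± 0.526 CPM in restraint and 14.7 ± 1.44 CPM in control (log2 fold change -0.51 ± 0.12, edgeR adjusted p = 0.0767).

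Among 14 genes of cytochrome c and coenzyme Q synthesis, 1 passed. Restraint lay below control without overlap in 6 of the 14 and above in 1, against 11.1% and 10.6% of all features. Coq10b, a coenzyme Q binding protein of the inner membrane, fell in restraint, at 11.4, 7.88 and 9.56 CPM in restraint and 16.4, 16.9 and 15.1 CPM in control, with groups that do not overlap. Its log2 fold change was -0.75 ± 0.15 (edgeR adjusted p = 0.0434). Leaving out any 1 library ended the call, except restraint 1, with edgeR adjusted p between 0.0279 and 0.198. Cytochrome c itself, Cycs, averaged 499 ± 16.0 CPM in restraint and 578 ± 49.7 CPM in control (SD, n = 3 each; log2 fold change -0.21 ± 0.11). Of 4 related genes outside the symbol rule, 0 passed; Ndufa4l2, a paralog of Ndufa4 induced by low oxygen, had -0.50 ± 0.16.

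Of 18 transcriptional regulators of respiratory genes, 1 passed. Ppargc1a, PGC-1alpha, rose in restraint, at 58.4, 107 and 71.2 CPM in restraint and 24.6, 26.7 and 23.2 CPM in control, a log2 fold change of 1.67 ± 0.21 (edgeR adjusted p = 0.0116). Every restraint library was above every control library, by more than the control spread. The call ended without control 1 (edgeR adjusted p = 0.0831) and without control 2 (0.0512), and held without any other single library. Its paralog Ppargc1b, chosen after its values were seen, stood at 6.83, 6.73 and 4.05 CPM in restraint and 10.9, 10.5 and 14.6 CPM in control, with -1.03 ± 0.22 on the log2 scale (edgeR adjusted p = 0.0602). For the factors that bind the promoter motifs above, also picked for mention after their values were seen, the log2 fold changes did not pass the test. Nrf1 had 0.21 ± 0.15 and Gabpa -0.16 ± 0.16. The ERR receptor genes had -0.14 ± 0.11 for Esrra, -0.47 ± 0.19 for Esrrb and -0.30 ± 0.14 for Esrrg. Tfam, the activator of mitochondrial DNA, had -0.18 ± 0.12 and did not pass either.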

How the data were processed

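Polyadenylated RNA of mouse gastrocnemius was sequenced in 6 libraries, 3 restraint and 3 control, grouped by the treatment label. The submitters' processing notes name GRCm38 (mm10), StringTie 2.1.3b, HISAT2 2.1.0, Trimmomatic and bcl2fastq 2.20.0 but no order of use. Per the file headers, the authors deposited read counts (whole numbers), FPKM and TPM for each library. Whether counting used strand is not stated, and 9 subunits overlap the span of another tested gene. Depth was 44290720 to 51125779 counts per library, and the replicates differ by more than counting noise.

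The count test was that of edgeR 4.0.16 under R 4.3.3 (filterByExpr minimum count 10, minimum total 15, TMM factors, quasi-likelihood test, two-sided, Benjamini-Hochberg over all 15448 features tested, threshold 0.05), without a replicate block, with SE as the absolute log2 fold change over the square root of F. The code was checked on simulated data. Single values of 1 subunit are not reported here. In all, 20 alternatives were tried, among them DESeq2 1.42.0 and limma 3.58.1 (log2 of TPM or FPKM plus 1). Members and lists were chosen with earlier results of these data known. Named were the highest-level subunits, those with the smallest p and the largest changes, complex II, the isoform pairs and called genes; the pericyte markers were added after the data were seen. Lengths are of GENCODE M21 transcripts with the longest coding sequence, and coordinates and promoters are from RefSeq GRCm38.p6.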

Additional observations from a re-analysis of the deposited data

How the results depend on the processing

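The number of features called was 809 by DESeq2, 153 by limma on log2(FPKM + 1), 112 and 122 by limma on log2(TPM + 0.1) and log2(TPM + 1), 60 with a replicate block, and 16 to 350 when single libraries were left out (16 without control 1, 51 without control 2, 174 without control 3, 350 without restraint 1, 98 without restraint 2 and 55 without restraint 3), against 282. Subunits called numbered 1 by DESeq2 and 1 by limma on log2(FPKM + 1), Cox4i2 in each, and 0 under the other 18 alternatives. Replicate numbers did not pair the libraries: same-number correlations of deviations were 0.01, -0.20 and -0.21, and with the replicate block 0 subunits were called and the subunit median was -0.10. Of 596 values under alternatives of the 30 tested subunits named by the rule above, 34 changed sign, over 11 of the 30, none of them called. Signs of the other subunits were not followed singly, but over all 65 the number above 0 went from 8 to 29 without control 2. Without control 2 the complex I median was 0.01. The mean share of the muscle isoform by read counts was 97.8% for Cox6a2, 60.3% for Cox7a1 and 89.9% for Cox8b, and per annotated mRNA length it was 67.4% for Cox7a1; these 2 scales were chosen after seeing the data. Coq10b was called under 10 of 14 alternatives that keep all libraries (not with library totals, limma on log2 TPM or the replicate block, where its adjusted p was 0.150), Cd68 under 7 of 14 and Ppargc1a under 14 of 14. With 3 libraries a group and few reads for Cox4i2 and Cox6b2, small changes could not be resolved.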
